A study of Mus musculus with 72 samples.

Results

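The change described here is the one that 3 Nup133-null mouse embryonic stem cell lines made between day 2 and day 3 of a neuroectodermal differentiation, the day on which retinoic acid was added. Nup133 is a scaffold protein of the nuclear pore. The members were chosen by genotype and day from the sample labels and are 6 samples (24 count files) of the 18 samples (72 files) of the series. They are lines #14, #19 and #319, each sampled at day 2 and again at day 3, with 4 technical files per sample. Lines #14 and #19 are Nup133-/- derivatives of the male line HM1 made with CRISPR/Cas9, which the labels list with 40 chromosomes (for #19 only as likely). Line #319 was derived from a blastocyst and carries Nup133 merm/merm and Sox1 gfp/+. It is XX with 42 chromosomes, including extra copies of chromosomes 8 and 12. The cells were taken off serum, LIF and feeder fibroblasts and grown in N2B27 medium for 2 days. They then received fresh medium with 1 μM all-trans retinoic acid for 24 h. No sample was kept to day 3 without retinoic acid, so elapsed time, the medium change and retinoic acid cannot be told apart. The controls, used only where the mutant step is compared with theirs, are 2 biological replicates of HM1 and line #1A4 (XY, Sox1 gfp/+), which also came from a blastocyst. All were treated alike and sampled on the same days.

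Retinoic acid is made from vitamin A by retinol and retinaldehyde dehydrogenases and is broken down by the CYP26 cytochromes. Inside the cell it is carried by CRABP proteins and binds the retinoic acid receptors RARA, RARB and RARG, which pair with retinoid X receptors on DNA. The receptors bind pairs of a short half-site arranged as direct repeats. A pair 5 bases apart, called DR5, is the classic retinoic acid response element. In the early embryo the signal sets posterior identity along the neural axis, above all through the Hox clusters, and it speeds the exit from pluripotency.

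Among 11769 tested genes with a RefSeq promoter, a window from 250 bases before to 50 bases after the start, 7 held a DR5 pair on either strand. The half-sites searched were AGGTCA, and also AGTTCA, and also GGTTCA, and also GGGTCA. This is 0.0595% of promoters. The pair stood in 2 of the 478 promoters of genes that rose (0.418%), in 0 of the 194 of genes that fell and in 5 of the 11097 of genes that were not called. The 2 that rose were Cyp26a1, which encodes the main retinoic acid-degrading enzyme, and Rarb, which encodes a retinoic acid receptor. Their elements are printed 5′ to 3′ on the strand of the gene from RefSeq on GRCm38.p6, each with 6 bases on either side and with the half-sites in capitals.
Cyp26a1, chr19:37697770-37697798 (+): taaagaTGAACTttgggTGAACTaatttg
Rarb, chr14:16575507-16575535 (−): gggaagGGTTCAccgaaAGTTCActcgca
The Cyp26a1 pair lies 32 to 16 bases before the RefSeq start and reads as the reverse strand of the half-sites. The Rarb pair lies 53 to 37 bases before the RefSeq start on the strand of the gene, but inside the first exon of the longer GENCODE transcript used for its counts. Pairs 2 bases apart were found in 13 promoters (0.110%) and pairs 1 base apart in 31 (0.263%). The first kind stood in 1 promoter of a gene that rose (Slc25a21, 0.209%) and in 1 of a gene that fell (Slc7a7, 0.515%). The second stood in 1 promoter of a gene that rose (Phactr2, 0.209%) and in 0 of genes that fell, a share among rises below that of all tested genes. Among called genes no promoter held pairs at more than 1 of the 3 spacings. These are letter matches and no binding was measured.

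The step from day 2 to day 3 changed 956 of 16524 tested genes in the knockout lines (5.79%), of which 682 rose (4.13%) and 274 fell (1.66%). Calls are edgeR quasi-likelihood tests with the cell line as a block (3 lines per day) and a Benjamini-Hochberg adjusted p under 0.05. Changes were large. Of the called genes 523 rose and 172 fell by more than 2 on the log2 scale, 152 rose and 31 fell by more than 4, and the smallest called change was 1.15. All 956 moved the same way in the 3 lines, which a call across 3 paired lines nearly requires. Of the 16524 tested genes 4810 rose and 4282 fell in all 3 lines. Over all genes, 3356 (20.3%) lay higher at day 3 in every line than in any line at day 2, and 2602 (15.7%) lay lower. Without line #19, 5455 of 17535 genes were called (31.1%), 3066 higher (17.5%) and 2389 lower (13.6%). The median standard error then fell from 0.34 to 0.21, and 2005 of the higher and 955 of the lower calls exceeded 1 on the log2 scale. Of the 956 genes 937 were called with the same sign without line #19 and 0 changed sign. Leaving out line #14, which kept line #19 in the fit, left 424 calls, and leaving out line #319 left 1658. Levels are given as CPM, counts per 1000000 after TMM scaling, for lines #14, #19 and #319 in this order, and changes as log2 fold change ± SE. The SE is the absolute change divided by the square root of the F statistic of the quasi-likelihood test. For genes with few or 0 counts at day 2 it does not bound the fold.

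Line #19 stood apart at day 2. Gene counts per sample, in units of 1000000, were 51.7, 16.5 and 23.1 in the 3 lines at day 2 and 54.4, 26.7 and 34.5 at day 3. In line #19 at day 2 the transcript Gm42418 took 10.1% of the counts, at 132992 CPM against 1529 and 1398 in the other lines. At day 3 Gm42418 was high in lines #14 and #319 instead. It then stood at 9274, 1358 and 13725 CPM in lines #14, #19 and #319, against 1102 to 1790 CPM in the controls. The change of line #19 also followed transcript length. The median log2 change was -1.01 in the group of genes with the shortest transcripts and 1.01 in that with the longest, of 4 groups of 4131 genes each. In line #14 these medians were -0.17 and 0.17, and in line #319 they were -0.01 and 0.01. Counts over the gene lists are therefore given with and without line #19. The shares of all genes to set beside them are 4.13% higher and 1.66% lower with it, and 17.5% and 13.6% without it. The list counts and medians cover only members that passed the filter on low counts. A gene silent on 1 day passes it only through the other day. In these bulk samples, fewer cells of a type and less RNA per cell cannot be told apart. Nup133 itself stood at 21.2, 38.1 and 20.9 CPM at day 2 and 18.1, 25.3 and 14.9 CPM at day 3, against 189 to 280 CPM in the 6 control samples, and did not pass the test between days (-0.43 ± 0.23, adjusted p = 0.31). Every knockout sample lay below every control sample.

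**Figure D1:**
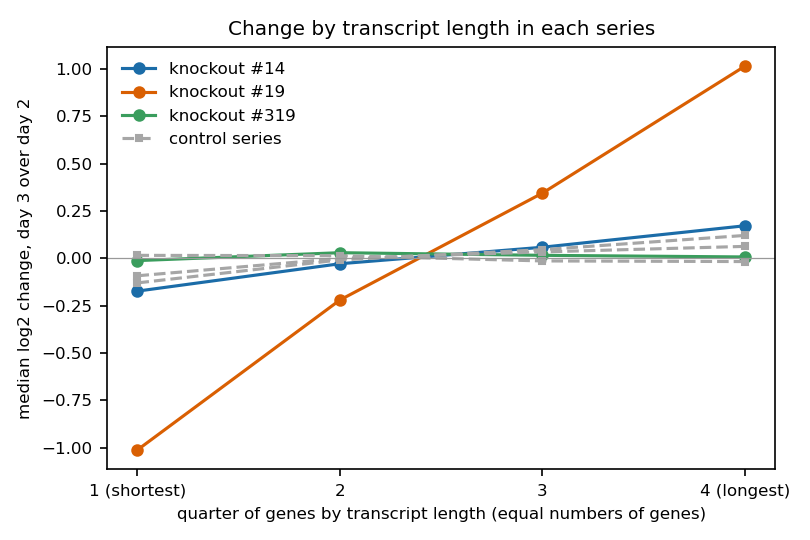
Median log2 change from day 2 to day 3 (vertical axis) in 4 equal groups of genes ordered by transcript length (horizontal axis), for each knockout line and each control series. Line #19 runs from -1.01 to 1.01 while line #319 stays between -0.01 and 0.03.

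Genes that make, carry and degrade retinoic acid were among those that rose. Of 14 tested members 7 rose and 0 fell, with a median log2 change of 2.15 against 0.04 over all genes. Cyp26a1 stood at 0.28, 0 and 0.14 CPM at day 2 and at 144, 126 and 203 CPM at day 3, a change of 9.85 ± 0.64 (adjusted p = 0.0126). It was near the detection limit in every line before retinoic acid and high in every line after it. Cyp26b1, a second degrading enzyme, went from 0.74, 0.48 and 1.1 to 12.4, 16.4 and 15.3 CPM (4.21 ± 0.39, adjusted p = 0.018). Dhrs3, which turns retinaldehyde back into retinol, went from 3.52, 5.90 and 2.36 to 75.6, 62.6 and 65.0 CPM (4.20 ± 0.38, adjusted p = 0.018). These 3 genes all encode enzymes that lower retinoic acid.

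The carriers and the uptake receptor rose as well. Crabp2, which delivers retinoic acid to its receptors, went from 33.0, 65.0 and 25.2 to 1170, 1616 and 781 CPM (4.91 ± 0.29, adjusted p = 0.0088). Stra6, the membrane receptor for retinol-binding protein, went from 3.52, 2.07 and 3.50 to 94.2, 52.4 and 104 CPM (4.77 ± 0.26, adjusted p = 0.0088). In both genes the days did not overlap. Crabp1, another cytoplasmic carrier, rose from 12.8, 28.7 and 7.18 to 74.2, 84.4 and 21.8 CPM (1.90 ± 0.31, adjusted p = 0.040), but its days overlapped, with line #319 at day 3 below line #19 at day 2. Aldh1a2, the retinaldehyde dehydrogenase that makes retinoic acid in the trunk of the embryo, rose from 1.18, 1.04 and 0.82 to 8.14, 12.2 and 3.55 CPM (2.81 ± 0.40, adjusted p = 0.032). Without line #14 neither Crabp1 (adjusted p = 0.19) nor Aldh1a2 (0.062) was called. Aldh1a1 (2.13 ± 0.61) and Aldh1a3 (2.18 ± 0.55) did not pass in the 3 lines and rose without line #19 (1.59 and 1.94). The retinol dehydrogenases Rdh10 (0.54 ± 0.33) and Rdh11 (-0.22 ± 0.23), the esterifying enzyme Lrat (1.39 ± 0.53) and the plasma carrier Rbp4 (0.32 ± 0.41) were called in neither fit. Without line #19 the list counted 10 rises and 0 falls of 14.

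Of the 6 receptors only Rarb was called in the 3 lines. It was at 0.16, 0 and 0 CPM at day 2 and at 76.9, 114 and 33.9 CPM at day 3 (9.80 ± 0.73, adjusted p = 0.0133). Rarb shares 57.7% of its exon bases with Top2b on the opposite strand. Top2b was at 238 CPM in the higher of its 2 knockout day means, and which day this was is not given here. Whether its reads add to those of Rarb was not tested. Rara went from 41.2, 36.1 and 36.9 to 61.8, 53 and 61.8 CPM (0.63 ± 0.22, adjusted p = 0.16). Rarg lay lower in every line, from 132, 100 and 126 to 45.1, 27.6 and 85.0 CPM (-1.33 ± 0.33, adjusted p = 0.087). Without line #19 both passed, Rara upward (0.66) and Rarg downward (-1.06). The same fit called the retinoid X receptor Rxra higher (0.91) and Rxrg lower (-2.08), which were at 1.05 ± 0.25 (adjusted p = 0.076) and -2.73 ± 0.61 (0.071) in the 3 lines. Rxrb was called in neither fit (0.15 ± 0.23). Rarg and Rxrg did not overlap between days in the 3 lines, lower at day 3 in each.

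**Figure D2:**
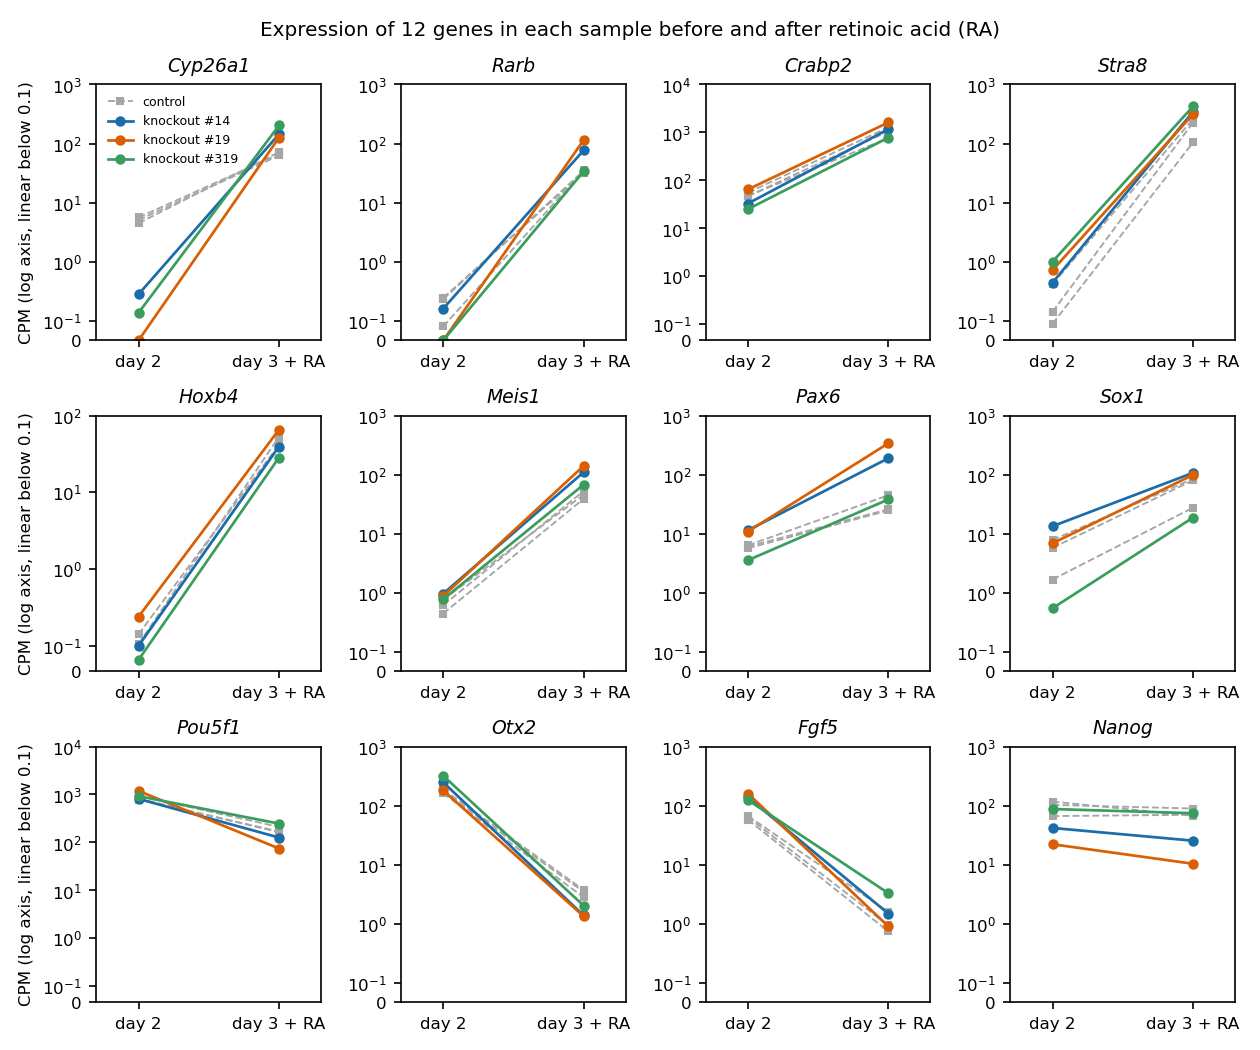
CPM of 12 genes at day 2 and at day 3 after retinoic acid (vertical axis, logarithmic above 0.1 and linear below), with 1 coloured line per knockout line and grey dashed lines for the 3 control series. Cyp26a1, Rarb, Stra8 and Hoxb4 climb from at most 1.00 CPM to between 28.3 and 426 CPM in the knockout lines, Otx2 and Fgf5 drop to at most 3.28 CPM, and Nanog stays within 10.3 to 87.3 CPM.

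Other known retinoic acid targets counted 11 rises and 1 fall among 24 tested (median 2.35), and 15 and 2 without line #19. Stra8, best known for starting meiosis in germ cells, went from 0.44, 0.72 and 1.00 to 344, 314 and 426 CPM (9.05 ± 0.38, adjusted p = 0.0073). Zfp703, a zinc finger repressor, went from 2.14, 1.91 and 2.04 to 292, 205 and 290 CPM (7.0 ± 0.29, adjusted p = 0.0073). The 3 lines were close to each other on both days for these genes. Cdx1, a caudal-type homeobox gene that acts upstream of Hox genes, went from 0.02, 0.16 and 0.14 to 11, 9.66 and 70.6 CPM (8.24 ± 0.65, adjusted p = 0.014). Line #319 reached the highest Cdx1 level. The member that fell was Nav2, a gene of axon outgrowth, from 250, 127 and 268 to 38.8, 23.7 and 35.4 CPM (-2.68 ± 0.24, adjusted p = 0.017). Ccnd2, a cyclin of the G1 phase, lay at 20.6, 9.49 and 28.6 and then at 304, 564 and 153 CPM, but with 4.03 ± 0.76 it missed the threshold both with line #19 (adjusted p = 0.050) and without it (0.077). Skil, Btg2, Ets1, Rai14 and Dleu2 were among the 12 members not called in the 3 lines.

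Hox genes were the group with the largest change. They encode the transcription factors that specify position along the body axis, and their paralog number runs from 1 at the 3′ end of a cluster, expressed anteriorly, to 13 at the 5′ end. Of 39 genes 27 passed the filter on low counts, and 24 rose and 0 fell, with a median of 6.60. A gene silent at day 2 passes the filter only through its day 3 counts, so these 27 are the Hox genes that became measurable and not a sample of all 39. Without line #19, 26 of 29 rose. Hoxb1 (chromosome 11, 96365752 to 96368256), which marks rhombomere 4 of the hindbrain, went from 0.14, 0 and 0.23 to 26.0, 33.9 and 121 CPM (8.50 ± 0.60, adjusted p = 0.013). Hoxb1 was highest in line #319, and the days did not overlap.

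The rise reached the middle of the clusters. Hoxb4 went from 0.10, 0.24 and 0.05 to 39.4, 65.4 and 28.3 CPM (8.52 ± 0.39, adjusted p = 0.0073). Hoxb5 had 0 counts in the 3 lines at day 2 and 4096 at day 3, at 28.6, 58.4 and 22.4 CPM. Taking 3 counts over the 3 day 2 samples as the floor, it was at least 943-fold higher. Day 2 held 1 or 2 counts for 3 other called members. The ratio of the days, with a 95% exact interval for counting error only, was 513 (91.8 to 20296) for Hoxa4, 1576 (283 to 62281) for Hoxc5 and 1064 (294 to 8790) for Hoxd3. The list's median stayed 6.60 with these 4 genes at their bound or ratio. Hoxb8 rose from 0.02, 0 and 0.14 to 17.9, 35.2 and 37.5 CPM (9.02 ± 0.58, adjusted p = 0.013) and Hoxb9 from 0.10, 0.08 and 1.23 to 9.77, 19.5 and 30.0 CPM (5.82 ± 0.65, adjusted p = 0.024).

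Levels after retinoic acid were compared between genes as CPM per kilobase of transcript. Hoxa2 to Hoxa5 lay between 3.26 and 18.1 in every line and Hoxa7 between 2.93 and 5.00. Hoxb2 was at 23.4, 37.8 and 40.5 CPM per kilobase at day 3. Hoxb4 to Hoxb6 lay between 7.79 and 25.5 in every line, and Hoxb8 between 6.80 and 14.2. Hoxc6, Hoxc8, Hoxd8, Hoxd9 and Hoxb13 stayed at or below 1.03 in every line. Hoxb1 to Hoxb9 were at 3.80 or more in every line apart from Hoxb7 (2.50, 4.74 and 4.59), and the tested Hoxc and Hoxd genes from number 6 on were at or below 2.2. The 3 tested members not called were Hoxc6 (3.12 ± 0.62, adjusted p = 0.055), Hoxc13 (0.97 ± 0.35) and Hoxd13 (0.76 ± 0.35). Called but small were Hoxb13 (3.86 ± 0.66), Hoxd8 (2.63 ± 0.42) and Hoxd9 (2.81 ± 0.53), which reached at most 2.02 CPM and lost the call without line #14 (adjusted p 0.12 to 0.21). Hoxd9 also lost it without line #319 (0.060), and Hoxd4 (6.33 ± 1.04) lost it without line #19 (0.12). Hoxd3 and Hoxd4 ended lower in line #319, at 4.90 and 4.95 CPM, than in lines #14 and #19, at 17.9 to 48.7 CPM. Hoxd3 and Hoxd4 share 58.7% and 45.1% of their exon bases with Gm28230 on the same strand, and Hoxb3 and Hoxb2 share 70.5% and 58.5% with Hoxb3os on the opposite strand, so their separate levels are uncertain.

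**Figure D3:**
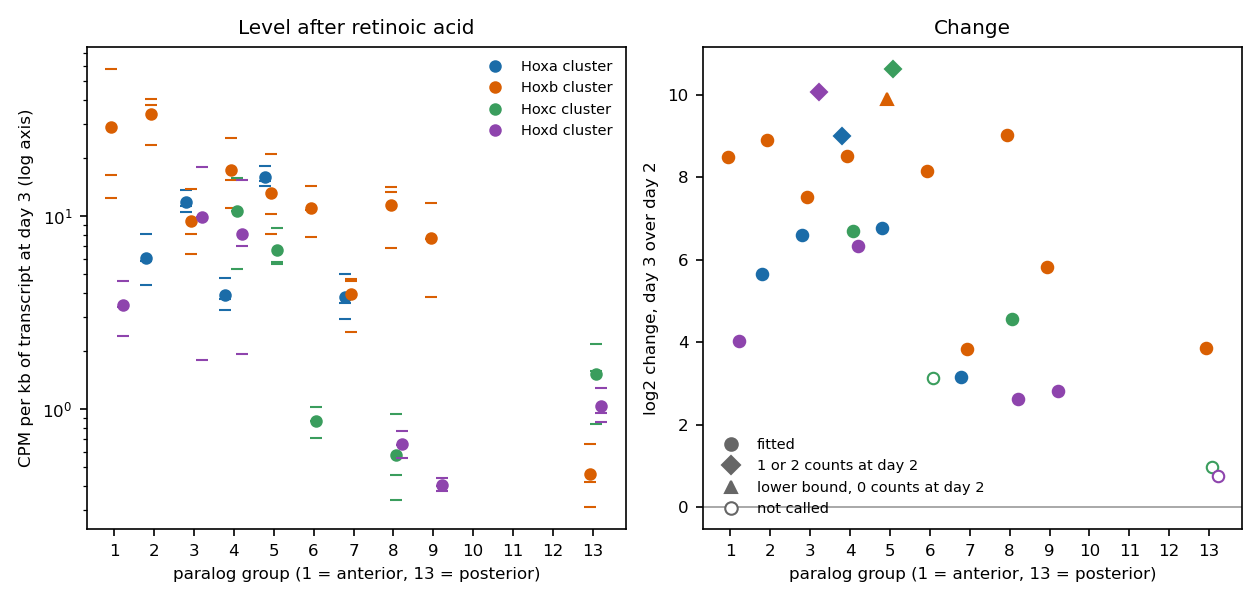
Hox genes (26 of the 27 tested in the knockout lines) by paralog group, with the level at day 3 in CPM per kilobase of transcript (left, dots for the mean and ticks for the 3 lines, logarithmic axis) and the log2 change (right, open symbols not called, diamonds the ratio of counts where day 2 held 1 or 2 counts, the triangle a lower bound). Hoxb2 has the highest mean of the genes drawn (33.9), and the group 13 genes Hoxc13 and Hoxd13 lie near no change.

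TALE proteins are the homeodomain partners that Hox proteins bind DNA with, and 5 of 11 rose and 1 fell (median 1.85). Meis1 went from 0.96, 0.88 and 0.77 to 110, 140 and 67.6 CPM (6.85 ± 0.33, adjusted p = 0.0088) and Meis2 from 5.51, 3.83 and 2.32 to 240, 300 and 212 CPM (6.07 ± 0.36, adjusted p = 0.010). Pknox2 rose by 4.21 ± 0.37 and Pbx2 by 1.88 ± 0.22. Tgif1, a TALE repressor of retinoid and TGF-beta signalling, fell from 191, 184 and 221 to 56.7, 59.2 and 57.0 CPM (-1.78 ± 0.23, adjusted p = 0.027). Without line #14 the counts were 3 and 0, with Pbx2 (adjusted p = 0.091) and Tgif1 (0.12) among those lost, and without line #19 they were 6 and 2.

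More neural progenitor genes rose than fell. Of 22 tested 13 rose and 1 fell (median 1.98), and without line #19 these counts were 16 and 3 of 21. Pax6, a transcription factor of the neural tube and eye, went from 11.4, 10.9 and 3.54 to 189, 338 and 37.9 CPM (4.15 ± 0.40, adjusted p = 0.018). Sox1, the earliest marker of the neural plate, went from 13.4, 6.86 and 0.55 to 107, 98.4 and 18.7 CPM (3.87 ± 0.47, adjusted p = 0.026) and was not called without line #19 (adjusted p = 0.078). Line #319 was lowest for both genes on both days. The labels give line #319 a gfp allele at Sox1, and control line #1A4, with the same allele, was likewise lowest among the controls (1.67 and 27.5 CPM against 5.75 to 7.81 and 79.8 to 84.7). The part of the allele in these levels was not tested. Sox21 rose from 2.30, 1.12 and 0.91 to 52.9, 47.3 and 11.8 CPM (4.52 ± 0.43, adjusted p = 0.018). Hes3 (5.65 ± 0.46) and Hes5 (4.36 ± 0.75), repressors that keep neural progenitors from differentiating, rose as well. Nes, the intermediate filament of neural stem cells, went from 113, 153 and 76.9 to 288, 466 and 178 CPM (1.39 ± 0.23, adjusted p = 0.040), a call lost without line #14 (0.28) and without line #319 (0.053). The member that fell was Zic2 (-1.97 ± 0.27, adjusted p = 0.031, and 0.14 without line #14). Sox2, shared by pluripotent and neural cells, stood at 287, 194 and 280 and then at 170, 165 and 160 CPM (-0.60 ± 0.24, adjusted p = 0.21), and it fell without line #19 (-0.78, adjusted p = 0.0014).

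Hindbrain genes counted 4 rises and 0 falls of 10 (median 1.81; 7 and 0 without line #19), among them Gbx1 (4.08 ± 0.43) and Irx3 (3.39 ± 0.45). Forebrain and midbrain genes counted 3 rises and 1 fall of 14 (median 1.49). Otx2, which is required for forebrain and midbrain and also marks primed pluripotency, dropped from 248, 181 and 320 to 1.38, 1.33 and 2.02 CPM (-7.30 ± 0.30, adjusted p = 0.0073). The rises ended at low levels, at most 6.01 CPM for Lhx2 (2.13 ± 0.32), Fezf2 (5.04 ± 0.83) and Pax2 (3.01 ± 0.54), and Lhx2 and Pax2 lost the call without line #14 (adjusted p = 0.22 and 0.17). Without line #19 these counts were 8 and 3 of 18. Of 20 listed genes 14 passed the filter on low counts in the 3 lines, so the counts and median do not describe all 20.

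Dorsoventral patterning genes counted 3 rises and 0 falls of 16 (median 1.73; 11 and 0 of 18 without line #19), namely Pax3 (3.86 ± 0.42), Prdm13 (5.36 ± 0.87) and Olig3 (3.59 ± 0.61, adjusted p = 0.042, and 0.12 without line #14). Prdm13 reached 5.45 and 11.1 CPM in lines #14 and #19 and 0.86 CPM in line #319. Shh, the floor plate signal, had 2 counts at day 2 and 25 at day 3 over the 3 lines and was not tested. Of 23 listed dorsoventral genes 16 passed the filter in the 3 lines. Their summed level at day 2 was only 13.7, 21.4 and 17.1 CPM. A gene silent at day 2 passes only through its day 3 counts, so the counts and median do not describe all 23. Of 24 proneural and neuronal genes 3 rose and 0 fell (median 0.93; 7 and 3 of 25 without line #19). Lhx1, a LIM homeobox gene of interneurons and of the early mesendoderm, went from 0.30, 0 and 0.50 to 26.0, 35.8 and 70.8 CPM (7.18 ± 0.65, adjusted p = 0.018). Ebf2 (2.98 ± 0.42) and Nhlh2 (3.26 ± 0.50) rose, to at most 4.14 CPM, and lost the call without line #14 (adjusted p = 0.060 and 0.15). Stmn2, a microtubule protein of neurons, lay lower at day 3, from 118, 191 and 123 to 47.5, 39.2 and 53.9 CPM (-1.59 ± 0.31, adjusted p = 0.054). Notch genes counted 4 rises and 0 falls of 19 (median 0.52; 6 and 3 without line #19, 1 and 0 without line #14). They were Hes5, the ligand Dll1 (1.72 ± 0.32), the target Hey2 (2.51 ± 0.45) and Lfng (2.25 ± 0.27), which modifies Notch receptors. Dll1, Hey2 and Lfng lost the call without line #14 (adjusted p = 0.14, 0.098 and 0.060).

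Genes of the primed and formative epiblast had the lowest median of the 31 lists. They counted 10 falls and 0 rises of 19 (median -2.15), with 11 falls and 1 rise without line #19 and 16 falls without line #319. Fgf5, the classic marker of the primed state, went from 138, 160 and 124 to 1.48, 0.90 and 3.28 CPM (-6.37 ± 0.56, adjusted p = 0.017). Foxd3, a forkhead factor of epiblast and neural crest, went from 68.0, 85.2 and 66.9 to 0.16, 0.04 and 0.30 CPM (-8.77 ± 0.63, adjusted p = 0.013), the largest fall among the 15 lowered genes named by size. Dnmt3b, a de novo DNA methyltransferase, went from 3238, 1842 and 2371 to 147, 143 and 168 CPM (-3.99 ± 0.32, adjusted p = 0.014). The days were far apart in each of these 3 genes. Pou3f1, a POU factor of the late epiblast, fell from 225, 274 and 186 to 10.1, 8.04 and 25.1 CPM (-4.16 ± 0.53, adjusted p = 0.028, and 0.099 without line #19).

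Pluripotency genes were followed in a general and a naive list. Of 15 general members 7 fell and 0 rose (median -1.85; 13 and 0 without line #19). Pou5f1 (Oct4), the core factor of pluripotent cells, stood at 810, 1189 and 924 CPM at day 2 and at 127, 74.8 and 247 CPM at day 3 (-2.85 ± 0.48, adjusted p = 0.043). L1td1 fell by 3.71 ± 0.52 and Tdgf1, the Nodal co-receptor, from 81.9, 49.2 and 340 to 2.28, 0.58 and 9.71 CPM (-5.50 ± 0.39, adjusted p = 0.013). Dppa4 (-1.99 ± 0.37) and Mybl2 (-1.31 ± 0.24) lost the call without line #14 (adjusted p = 0.078 and 0.23), and Mybl2 also without line #319 (0.14). Of 18 naive genes 3 fell and 0 rose (median -0.85), namely Fgf4 (-4.79 ± 0.58), Esrrb (-1.44 ± 0.25) and Nr0b1 (-1.91 ± 0.30). Esrrb and Nr0b1 were lost without line #14 (adjusted p = 0.18 and 0.11), and Esrrb also without line #319 (0.074). Without line #19, 8 fell and 2 rose. Nanog stood at 41.7, 22.1 and 87.3 at day 2 and at 25.4, 10.3 and 74.1 CPM at day 3 (-0.68 ± 0.27, adjusted p = 0.20), with overlapping days, and was lower without line #19 (-0.47, adjusted p = 0.037). Dppa5a was at 165, 303 and 545 and then at 103, 54.2 and 384 CPM (-1.20 ± 0.47, adjusted p = 0.19). Both genes overlapped between the days.

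Of 20 genes of the FGF and ERK pathway 6 fell and 2 rose (median -1.52). The ligand genes Fgf4 and Fgf5 fell as above, and Fgf15 fell by 2.54 ± 0.38. The feedback inhibitors Spry1 (-1.94 ± 0.25) and Spry4 (-3.91 ± 0.68) and the ERK-responsive factor Etv5 (-3.06 ± 0.34) fell too, Etv5 from 302, 250 and 586 to 39.8, 18.4 and 102 CPM. The genes that rose were the receptors Fgfr2, from 58.0, 39.6 and 29.7 to 278, 334 and 111 CPM (2.41 ± 0.32, adjusted p = 0.029), and Fgfr3, from 2.52, 1.76 and 1.45 to 30.2, 26.5 and 12.1 CPM (3.51 ± 0.31, adjusted p = 0.017). Fgf15 and Spry1 lost the call without line #14 (adjusted p = 0.069 and 0.12) and Spry4 without line #19 (0.25). Counts without line #19 were 7 falls and 3 rises, and without line #319 they were 10 and 3.

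Wnt pathway genes counted 7 rises and 1 fall of 23 (13 and 4 of 24 without line #19). The secreted inhibitors Sfrp5 and Frzb were among the rises. Sfrp5 went from 0.58, 1.2 and 0.64 to 151, 212 and 42.3 CPM (7.24 ± 0.52, adjusted p = 0.013) and Frzb from 0.68, 0.24 and 0.41 to 11.2, 17.3 and 6.67 CPM (4.54 ± 0.52, adjusted p = 0.025). The zinc finger targets Sp5 (3.96 ± 0.48) and Sp8 (3.80 ± 0.55), the ligands Wnt3a (2.36 ± 0.44) and Wnt7b (2.98 ± 0.32) and the R-spondin receptor Lgr5 (2.94 ± 0.46) rose as well. Wnt3a reached at most 1.10 CPM and lost the call without line #14 (adjusted p = 0.32) and without line #319 (0.084). Lef1, a nuclear mediator of the pathway that is also an epiblast marker, fell from 139, 110 and 80.9 to 6.93, 5.33 and 9.53 CPM (-3.93 ± 0.38, adjusted p = 0.019). Wnt1 had 1 count at day 2 and 169 at day 3, a ratio of 117 with a counting interval of 20.7 to 4637, and was not tested in the 3 lines.

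Of 21 TGF-beta and BMP genes 4 rose and 2 fell (median -0.16), and the counts were 6 and 5 without line #19 and 1 and 1 without line #14. The genes that fell were Tdgf1 and Nodal. Nodal went from 22.4, 18.2 and 195 to 11.1, 4.04 and 52.0 CPM (-1.69 ± 0.32, adjusted p = 0.049), and line #319 stood well above the others on both days. The genes that rose were the ligands Bmp2 (3.58 ± 0.50) and Bmp7 (1.77 ± 0.24) and the targets Id1 and Smad6 (2.36 ± 0.32). Id1, an inhibitor of bHLH factors, went from 1.42, 3.91 and 0.82 to 18, 24.0 and 9.36 CPM (3.26 ± 0.35, adjusted p = 0.022). Nodal, Bmp2, Bmp7 and Smad6 lost the call without line #14 (adjusted p 0.062 to 0.15). Of 10 hedgehog genes 0 were called by edgeR in the 3 lines, 4 had an unadjusted p below 0.05 and DESeq2's Wald test called 4. The receptor and target Ptch1 was at 494, 243 and 289 and then 277, 208 and 186 CPM (-0.57 ± 0.24, adjusted p = 0.23), and 2 members rose and 2 fell without line #19, Ptch1 downward (-0.74). That fit called 17.5% of all genes higher and 13.6% lower.

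Among caudal epiblast genes 7 of 12 rose and 0 fell (6 of 13 without line #19, 4 without line #14), with Cdx1, Sp5, Sp8, Wnt3a and Dll1 as above and Greb1. Nkx1-2, a marker of the caudal lateral epiblast, went from 1.48, 1.60 and 2.68 to 8.62, 15.8 and 59.6 CPM (3.44 ± 0.47, adjusted p = 0.030, and 0.063 without line #19). Brachyury, the mesoderm gene written T in the annotation, was at 0.64 to 3.01 CPM in all 6 samples and was not called. Mesendoderm genes counted 2 rises of 15, Lhx1 and Sox17, and 7 without line #19. Primitive endoderm genes counted 5 rises and 0 falls of 15 (8 without line #19, 3 without line #14). Sox17, an endoderm factor, went from 0.14, 0.16 and 0.36 to 5.35, 6.45 and 10.9 CPM (5.11 ± 0.37, adjusted p = 0.013). Sox7 (5.92 ± 0.97), Foxa1 (3.59 ± 0.39), Gata6 (2.67 ± 0.40) and Col4a2 (2.27 ± 0.41) rose as well, and Gata6 and Col4a2 lost the call without line #14 (adjusted p = 0.077 and 0.059). Summed over the list, the level was 447, 350 and 589 CPM at day 2 and 1002, 1133 and 786 CPM at day 3, with Lamb1, Col4a1, Sparc, Col4a2 and Lama1, basement membrane genes that other cells also express, among the highest. Trophoblast genes counted 2 rises of 10, Gata2 (2.47 ± 0.33) and Gata3 (3.01 ± 0.39), and 0 without line #14 (adjusted p = 0.10 and 0.070), and 3 rises and 2 falls without line #19. The fit without line #19 called 17.5% of all genes higher and 13.6% lower. Neural crest genes counted 1 rise, Pax3, and 1 fall, Foxd3, of 11 (4 and 2 without line #19). Feeder fibroblast genes counted 2 rises and 1 fall of 18 (8 and 1 without line #19), Col1a1 (1.41 ± 0.23) and Pdgfrb (1.88 ± 0.32) upward and Thy1 (-2.74 ± 0.31) downward. Col1a1 and Pdgfrb lost the call without line #14 (adjusted p = 0.31 and 0.18) and Col1a1 without line #319 (0.055). The summed fibroblast level was 239, 184 and 184 CPM at day 2 and 437, 332 and 287 CPM at day 3, while Postn stayed at or below 0.29 CPM and Dcn at or below 1.76 CPM. The part of such cells in the changes above was not tested.

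Of 19 cell cycle genes edgeR called 0 (median 0.00), with 4 at an unadjusted p below 0.05 and 2 called by DESeq2, and without line #19 it called 4 higher and 4 lower. The shares of all genes in that fit were 17.5% higher and 13.6% lower, for this list and those below. The proliferation gene Mki67 was at 428, 269 and 564 and then 562, 602 and 541 CPM (0.50 ± 0.32). EdgeR called 0 of 17 glycolysis genes (median -0.57, 7 at an unadjusted p below 0.05, 5 by DESeq2) and 0 of 18 cholesterol synthesis genes (median -0.11, 2 and 0), and without line #19 it called 1 cholesterol gene higher and 2 lower. Without line #19, 9 glycolysis genes fell, including Pkm, the pyruvate kinase gene, which went from 3574, 4513 and 3625 to 2383, 1981 and 2595 CPM (-0.75 ± 0.29 in the 3 lines, adjusted p = 0.19, and -0.53 without line #19, adjusted p = 0.035). Among 30 nucleoporin genes, of which Nup133 is one, 0 were called by edgeR (median -0.12, 3 at an unadjusted p below 0.05, 1 by DESeq2), and without line #19 there were 9 falls and 1 rise, against 2389 falls and 3066 rises over all genes. Tpr, the nuclear basket protein, was at 555, 392 and 674 and then 479, 571 and 449 CPM (-0.09 ± 0.31). Of 9 DNA methylation genes 3 fell and 0 rose (4 and 1 without line #19), namely the de novo enzymes Dnmt3a (-1.88 ± 0.26, adjusted p = 0.029, and 0.11 without line #14) and Dnmt3b and their cofactor Dnmt3l (-2.44 ± 0.37, adjusted p = 0.036). Of 8 genes of the Lin28 family 1 was called (1 higher and 2 lower without line #19). Hmga2 rose (2.05 ± 0.35, adjusted p = 0.043, and 0.059 without line #14), and Lin28a stood at 762, 740 and 621 and then 775, 836 and 814 CPM (0.20 ± 0.24). Among 16 stress and p53 genes 1 rose and 3 fell (3 and 5 without line #19). Atf3 rose (2.06 ± 0.37) and Trib3 (-1.84 ± 0.33), Chac1 (-1.73 ± 0.26) and Pmaip1 (-1.62 ± 0.29) fell, and all 4 lost the call without line #14 (adjusted p 0.056 to 0.32).

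**Figure D4:**
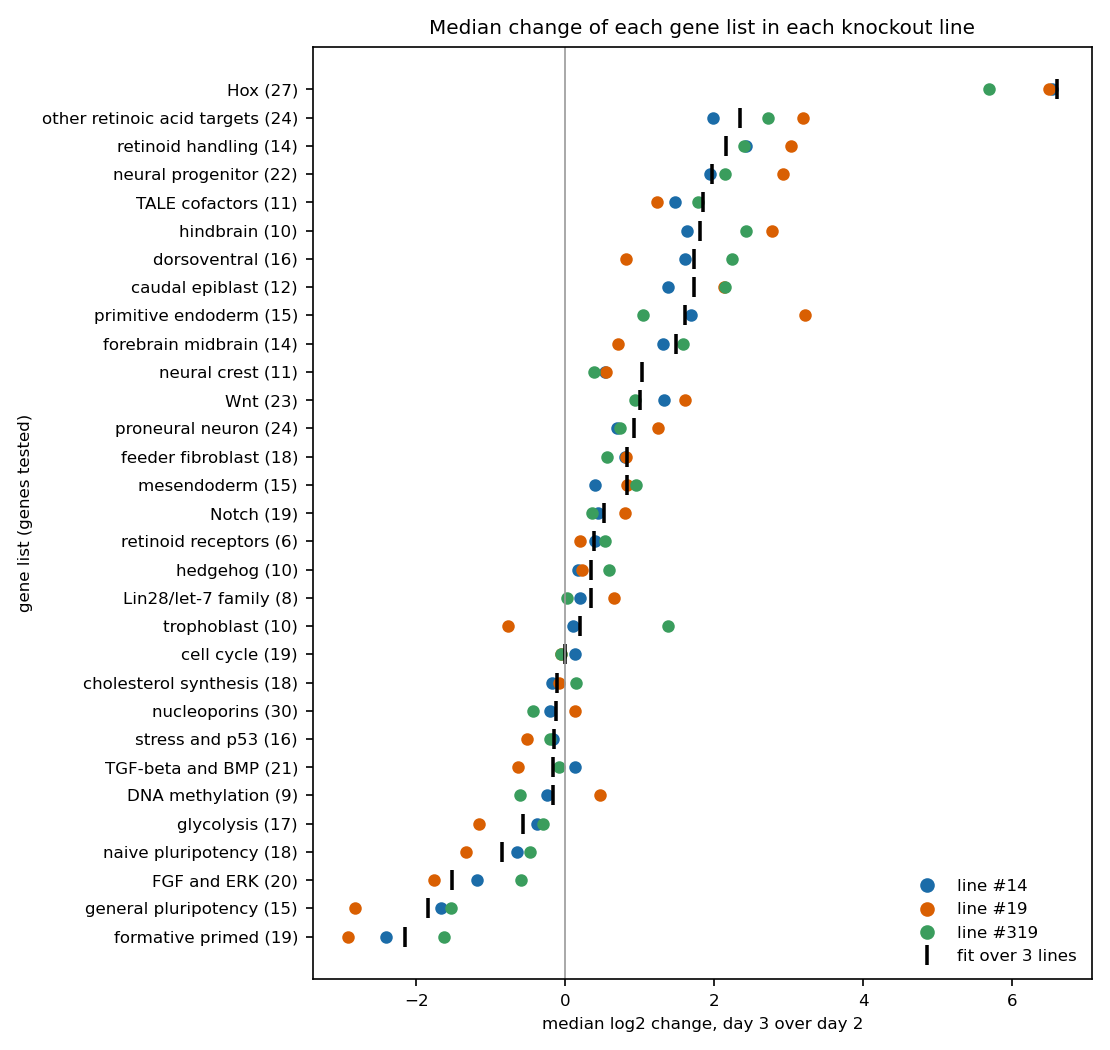
Median log2 change from day 2 to day 3 (horizontal axis) of each gene list with its number of tested genes, as 1 dot per knockout line and a black bar for the fit over the 3 lines. Hox genes lie farthest to the right in every line (fit 6.60) and the formative and primed genes farthest to the left (fit -2.15).

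Beyond the lists, the genes with the largest changes were these. Ccdc198, written ccdc198 in the annotation, had 1 count at day 2 and 5939 at day 3, a ratio of 4102 with a counting interval of 736 to 162045. Cdh6, a cadherin of the neural folds and kidney, went from 0.16, 0.24 and 0.05 to 42.9, 47.7 and 9.20 CPM (7.83 ± 0.36, adjusted p = 0.0073). Enpp2, which encodes the lysophospholipid-making enzyme autotaxin, fell from 323, 167 and 236 to 1.71, 2.02 and 1.56 CPM (-7.06 ± 0.39, adjusted p = 0.0088). The noncoding RNA Platr10 fell from 110, 160 and 137 to 1.59, 0.865 and 2.50 CPM (-6.42 ± 0.48), and Tdh, the threonine dehydrogenase of mouse embryonic stem cells, from 163, 196 and 335 to 10.1, 4.25 and 8.05 CPM (-4.97 ± 0.43). Both were below their day 2 level in every line by more than 10-fold. Further falls of more than 4 on the log2 scale were Tmem154, Grm6, Bcl11a, Cass4, Cyp2j13, Vrtn and Foxi3, between -5.19 and -4.38.

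The 3 lines did not respond equally in every gene. Across genes, the change of line #14 correlated with that of line #319 at Pearson's r = 0.82, with that of line #19 at 0.69, and lines #19 and #319 correlated at 0.48, over genes that share the libraries' depth and length differences. Line #319 ended lower than lines #14 and #19 in Pax6, Sox1, Sox21, Prdm13, Hoxd3 and Hoxd4 as above, and also in Dbx1, at 0.05 CPM against 5.26 and 14.9 CPM. It ended higher in Cdx1, Hoxb1, Nkx1-2 and Lhx1, and in Cdx2, at 20.5 CPM against 0.78 and 0.54 CPM, and Wnt8a, at 74.2 CPM against 3.24 and 2.56 CPM. Dbx1, Cdx2 and Wnt8a were picked after their values were seen. With 1 sample per line and day there is no test of a difference between lines. The labels give line #319 another origin, mutation, sex and karyotype than lines #14 and #19, which cannot be told apart here. Control line #1A4, also from a blastocyst but XY with 40 chromosomes, lay on the same side of HM1 in some of these genes. At day 3 it was at 23.9 CPM for Cdx1 (HM1 8.06 and 7.63) and 55.5 for Hoxb1 (12.9 and 16.4). It was at 16.3 for Lhx1 (6.81 and 5.38) and 5.36 for Hoxd3 (13.7 and 7.63). Apart from Sox1 above, the other genes were not set beside the controls, and the part of origin was not tested. The median change on the extra chromosomes of line #319 was 0.05 for chromosome 8 and 0.03 for chromosome 12, against 0.01 on the autosomes present in 2 copies. The extra copies are present on both days, so a change between days cannot show their dosage.

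Whether the mutant step differed from the control step was tested in 1 fit over 12 samples. At an adjusted p below 0.05, 0 of 17672 genes (0.0%) differed in edgeR's quasi-likelihood test, 1274 had an unadjusted p below 0.05, and DESeq2's Wald test called 154. Without line #19 the edgeR test called 74 of 18163 genes (0.407%), 29 with a more positive and 45 with a more negative change in the mutant. Leaving out any other line or control series gave 0. All of these differences use the same control samples.

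Several of the 74 genes had different levels at day 2 already. Cyp26a1 was at 0.28 and 0.14 CPM in lines #14 and #319 at day 2 against 5.07, 5.60 and 4.48 CPM in the controls (HM1 replicates 1 and 2 and #1A4). After retinoic acid it was at 144 and 203 against 62.8, 66.2 and 71.8 CPM. The mutant change exceeded the control change by 5.69 ± 0.29 on the log2 scale (adjusted p = 2.98e-04, and 0.082 with line #19). Lhx1 stood at 5.12, 5.95 and 5.09 CPM in the controls at day 2 and at 6.81, 5.38 and 16.3 CPM at day 3, and its change differed by 6.08 ± 0.66 (adjusted p = 0.038, and 0.16 with line #19). For both genes the mutant started below the controls and ended above them. Frzb (3.39 ± 0.41), Ndnf (2.47 ± 0.31), Aldh1a2 (2.10 ± 0.32) and Sox21 (1.91 ± 0.27) also rose more in the mutant lines.

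In the other direction Tdgf1 fell further in the mutant, by a difference of -2.75 ± 0.13 (adjusted p = 2.63e-04, and 0.16 with line #19), and was at 17.2, 25.6 and 16.7 CPM in the controls at day 3. Otx2 ended at 2.80, 3.73 and 3.47 CPM in the controls (difference -1.70 ± 0.14). Nphs1, the slit diaphragm protein nephrin (-2.40 ± 0.23), and Pdk4, a kinase that limits pyruvate oxidation (-1.80 ± 0.28), fell in the mutant while the controls changed by -0.14 ± 0.19 and -0.06 ± 0.21. These 2 control changes come from the 12-sample fit, which includes line #19, so their SE cannot be set against that of the differences. Pik3ip1 (-1.79 ± 0.25) and the transporter Abcc4 (-1.68 ± 0.11) completed the largest negative differences. Among list members, Nes rose in the mutant lines against 250, 196 and 257 and then 169, 143 and 225 CPM in the controls (difference 1.69 ± 0.14), and Sox2 fell against 149, 164 and 120 and then 151, 163 and 122 CPM (-0.80 ± 0.10). Cer1 (6.93 ± 0.63), a secreted Nodal inhibitor, was at 5.73, 5.51 and 2.51 CPM in the controls at day 2 and at or below 0.07 CPM at day 3, while the knockout samples were at or below 0.24 CPM on both days. Ptn, Dkk1, Gli3 and Sesn2 had more positive changes as well, and Skil, Ptch1, Grhl2 and Dab2 more negative ones. No member of the Hox list was among the 74.

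**Figure D5:**
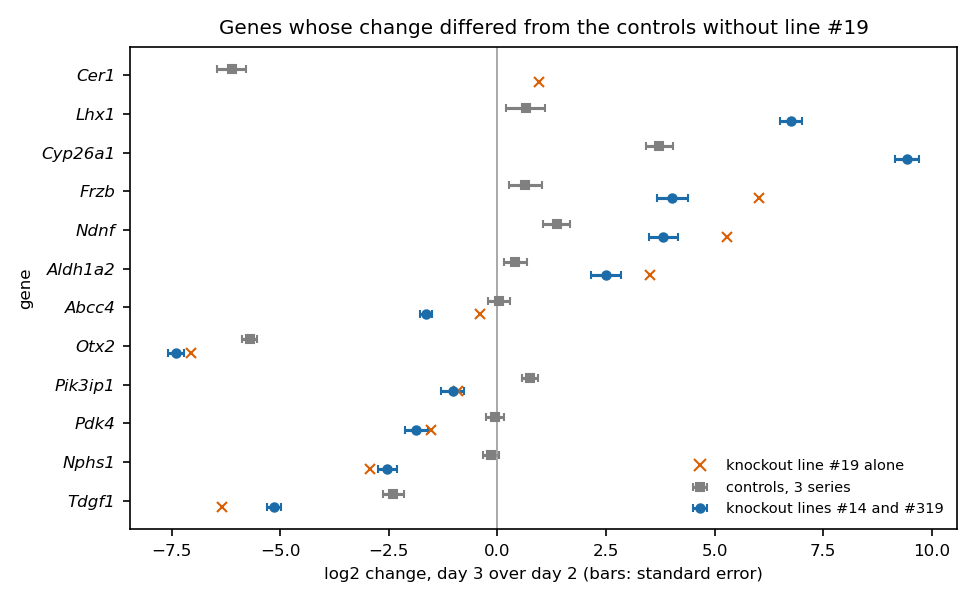
Log2 change from day 2 to day 3 (horizontal axis, bars the standard error) in the controls and in knockout lines #14 and #319 for the 6 called genes in each direction with the largest difference at a mean of at least 2 CPM in a group, with line #19 alone as a cross where its day 2 count was above 0. Control values come from the 12-sample fit, which includes line #19, and knockout values from the fit without it, so the bars are not directly comparable. Cer1, too low in the knockout lines to be fitted there, has no knockout point (difference 6.93), Lhx1 and Cyp26a1 follow upward with 6.08 and 5.69, and Tdgf1 has the widest gap downward, -2.75.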

How the data were processed

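Messenger RNA libraries were poly(A)-selected and strand-specific, per the labels' protocols, and reads were handled with bcl2fastq 2.17.1.14, STAR 2.4.0k, SAMtools and HTSeq on mm10, per the submitters' processing notes. The use of strand in counting is not given in the sources used here. The authors deposited raw counts per Ensembl transcript, 1 file per technical library. The 4 files of a sample, which differed by little more than counting error (chi-square per degree of freedom 1.01 to 1.03), were summed. GENCODE M21 (GRCm38) matched 108214 of 110379 identifiers, in 45321 genes. Transcripts of a gene repeat the same reads, so each gene is represented by its transcript with the most counts.

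TMM factors were computed over the 12 samples of days 2 and 3. After filterByExpr, a robust quasi-likelihood model with terms for line and day was fitted in edgeR 4.0.16 under R 4.3.3 to the 6 knockout samples (2 residual degrees of freedom, biological coefficient of variation 0.340). The comparison with the controls used the 12 samples (4 residual degrees of freedom). Adjusted p-values follow Benjamini and Hochberg across every tested gene. They rest on the spread between lines, which the model moderates across genes. The fit without line #19 keeps only lines #14 and #319 and has fewer than 2 residual degrees of freedom. Its calls therefore lean more on that moderation than on the spread of each gene. Pairing comes from the lines themselves. Deviations from the day means correlated at 0.33, -0.15 and 0.32 between the days of lines #14, #19 and #319. Between different lines they ran from -0.51 (#319 at day 2, #14 at day 3) to 0.37 (#14 at day 2, #19 at day 3). They therefore do not set line #14 apart from line #19. The scripts were tested on simulated data. The members and gene lists were chosen with earlier results of these data known. Named genes are the 15 in each direction with the largest called change at a mean of 5 CPM or more, up to 6 members of each list (called members with the largest change and the one with the highest CPM), tested retinoid and Hox genes, and up to 6 genes in each direction of the difference between genotypes at a mean of 2 CPM or more in a group, and other genes with values (such as Nanog, Nav2, Ccnd2, Zic2, Fgfr2, Dppa4 and Mybl2) were picked after these were seen. Some genes that meet this rule are not reported here. Alternatives were other scalings, filters, transcripts, tests and designs, a correction for transcript length, and leaving out each line.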

Additional observations from a re-analysis of the deposited data

How the results depend on the processing

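The step in the knockout lines was called for 956 genes with the replicate block (the cell line), for 1402 with no replicate block, and for 424 to 5455 when 1 line at a time was left out. It was 1593 with no filter on low counts, 2619 with DESeq2's Wald test, 1985 (1144 higher, 841 lower) with the block and a length correction, 5968 with all 18 samples in the fit and 4696 with the 12 samples of days 2 and 3. The other settings gave 709 (all transcripts summed) to 1063 (no robust estimation). The difference between genotypes was called for 0 genes in the main analysis, 3 without the block, 4 without the filter, 154 with DESeq2, 3 with the length correction and 0 to 74 when 1 series was left out. The control step gave 3368 calls and 589 to 8775 when 1 series was left out. It gave 720 in a fit of HM1 and the HM1-derived knockout lines #14 and #19 alone. Of 146 named genes 116 were called and 0 of these changed sign under any of these settings. Calls were lost for 34 without line #14, 5 without line #19, 5 without line #319, 11 without the block, 20 with summed transcripts, 8 with the longest transcript and 2 with the length correction. Among named genes that were not called, 4 changed sign: Lamb1 (-0.0064) and Mki67 (-0.037) with the length correction, Tpr, which ran from -0.40 to 0.16 when 1 line was left out, and Hmgcs1, which ran from -0.11 to 0.46. No list median changed sign where its main value exceeded the SD of the 3 line medians. Some smaller medians did. Without line #319 the trophoblast median went from 0.20 to -0.33 and the nucleoporin median from -0.12 to 0.007. With the length correction the stress and p53 median went from -0.15 to 0.07. The cause of these shifts was not tested. With 3 lines and 2 residual degrees of freedom, the smallest change called in the main analysis was 1.15 on the log2 scale.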
